A study of Mus musculus with 22 samples.

Results

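The nuclear-encoded respiratory chain genes were the gene symbols of the count table that name a subunit of complexes I to V (Ndufa, Ndufb, Ndufc, Ndufs, Ndufv, Sdh, Uqcr, Cox4 to Cox8 and Atp5 families) with a mean of at least 5 CPM (counts scaled to a common library size of 1e6) over all libraries. Among the 55011 genes counted, 85 symbols matched, and 76 of these passed the minimum: 36 of complex I, 4 of complex II, 8 of complex III, 11 of complex IV and 17 of complex V. All 76 were among the 15462 genes tested. The lowest of the 76 was Ndufs5 at 13.4 CPM and the highest gene under the minimum was Cox4i2 at 0.942 CPM, so the same 76 were found at a minimum of 1 or 10 CPM.

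The question was whether these genes differed between 3 kinds of CD4+ T cell recovered from one transfer experiment, with and without a weak sample coded E2. The experiment used scurfy mice, whose Foxp3 gene is mutated and which die early of autoimmune disease. The labels give the strain C57BL/6 and list the scurfy genotype for every sample, the WT Treg samples included. In the FOXP3 group, CD4+ T cells from lymph nodes of 10-day-old scurfy mice carried a vector with human FOXP3 and the surface reporter LNGFR. In the LNGFR group, such cells carried the reporter alone, and the WT Treg group received regulatory T cells (Treg) sorted as CD4+CD25+ from CD45.1+ donors. All recipients were scurfy mice given cyclophosphamide at 50 mg/kg at 10 days of age, cells on day 14 and human IL-2 at 1000 IU/g, daily for 5 days and weekly after that. On day 50, 1000 LNGFR+ or CD45.1 cells per library were sorted from lymph nodes and read by Smart-seq, which copies and amplifies polyadenylated RNA. Each code in the titles has 2 libraries, which were summed as 1 replicate, giving 5 FOXP3 codes (F1, F2, F5, N2, N3), 3 LNGFR codes (G1, G2, G3) and 3 WT Treg codes (E2, G4, L1). Whether each code stands for its own animal is not given, and a p-value here reflects only how codes vary, which may be partly technical.

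The respiratory chain sits in the inner mitochondrial membrane. Complex I (NADH dehydrogenase) and complex II (succinate dehydrogenase) pass electrons to coenzyme Q, complex III (cytochrome bc1) passes them on to cytochrome c, and complex IV (cytochrome c oxidase) hands them to oxygen, while complex V (ATP synthase) makes ATP from the proton gradient. Most subunits are encoded in the nucleus and a few in mitochondrial DNA, and in T cells the chain is known to be needed for Treg suppressive function and for proliferation after activation.

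Codes E2, G1 and N3 stood apart, and each in its own way. The 22 libraries held 332570 to 5453375 counts, with the 3 weakest being both libraries of E2 (641980 and 512646 counts) and the second library of G1. Repeat-derived gene models took 55.7% and 47.4% of the counts of E2 and 28.3% of the second G1 library, against 2.09% to 4.27% in the other 19. B-cell markers were counted in every group, all 12 of 12 in every code. Their summed level was 748 to 13600 CPM in FOXP3 codes with the maximum in N3, 1348 to 5234 CPM in LNGFR codes with the maximum in G1, and 426 to 751 CPM in WT Treg codes. The 10 T-cell markers were likewise counted in every code, at 2846 CPM in E2 and 4278 to 7834 CPM in the others. The 25 cell cycle genes summed to 3191 to 4504 CPM in F1, F2, F5 and N2 and to 1023 CPM in N3, 880.0 to 1200.3 CPM in LNGFR codes, 687 CPM in E2 and 1858 and 2208 CPM in G4 and L1. Mouse Foxp3 was 162 to 313 CPM in FOXP3 codes, 42.7 to 143 CPM in LNGFR codes and 704 to 1630.1 CPM in WT Treg codes. Results are therefore given for all 11 codes, without E2, without E2 and G1, and without E2, G1 and N3, a set that leaves 4 FOXP3, 2 LNGFR and 2 WT Treg codes.

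The 76 genes took 1.14% to 1.66% of the counts of 18 libraries. The exceptions were the first library of G1 at 2.46%, the second of G1 at 0.347% and those of E2 at 0.297% and 0.33%. With the repeat-derived models left out of the total, the shares in E2 were 0.672% and 0.628%. Between the 2 libraries of a code, Pearson r of log2 CPM over the 76 genes (across genes, which are not independent) was 0.989 to 0.995, but 0.889 in E2 and 0.55 in G1. The chi-square per gene, which allows for counting error, was 79.5 in G1, 15.6 in F1, whose libraries differed by a median of 0.21 (log2), and 1.40 in E2, against 2.25 to 2.69 in the others. E2 rests on 3603 counts over all 76 genes, a median of 38 counts a gene. In E2 Ndufs5 had no count, which would allow up to 3 counts or 3.95 CPM if reads were independent molecules. Atp5l, a membrane subunit of complex V, had 25 counts there.

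Levels per length differed widely between members. By the length of the principal transcript, complex IV (median 264 RPKM, that is CPM per kilobase of transcript, averaged over the codes) and complex V (median 259.6 RPKM over the 16 of its 17 genes with a length) stood above complex III (169 RPKM), complex II (107 RPKM) and complex I (106 RPKM). The highest were Cox4i1, the main isoform of cytochrome oxidase subunit 4 (830.5 RPKM), Uqcrh, the hinge protein of complex III (524 RPKM), and Atp5b, the catalytic beta subunit of ATP synthase (517 RPKM). The principal transcript need not be the one these cells use, so this order is approximate.

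Tissue-restricted isoforms were close to undetected. Cox4i2, an isoform of lung and other tissues, had 48 counts in all 22 libraries, Cox6b2 59, Cox7a1 24, Cox7b2 9, Cox8b 8, Cox8c 4, and Cox6a2, the heart and muscle isoform, 3. Ndufa4l2, an isoform linked to hypoxia, had 3 counts in 1 library. Their ubiquitous counterparts Cox4i1, Cox6a1, Cox6b1, Cox7a2, Cox7b and Cox8a were all among the 76.

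The promoters of these genes are known for sites of the factors NRF1 and GABPA (an ETS factor) and for cyclic AMP response elements (CRE). The 250 bases before the start of 64 of the 76 genes were searched on both strands in RefSeq sequences (build GRCm38.p6); the other 12, Atp5a1 and Cox4i1 among them, had no entry. The NRF1 motif (its canonical palindrome with 1 free base) was found in 13 of the 64 (20.3%) and in 4.23% of all 27025 symbols. The ETS motif CCGGAAGT was in 3 (4.69%, against 3.23%) and the CRE TGACGTCA, which reads alike on both strands, in 4 (6.25%, against 1.77%). No matches of different motifs overlapped. Members' windows had a median of 56.4% G and C against 52.4% in all windows, and windows of like composition were not compared. The stretches below are those of genes that passed the test in any fit or stand in the enzymes' cores, so that the reader can see the element next to the gene's values. They run 5′ to 3′ on the gene's strand, with every match in capitals; that of Cox6a1 holds 2. Where the match lies in an annotated exon of any gene, 10 bases either side are given.
Ndufa11 (complex I), chr17:56717686-56717756, plus strand: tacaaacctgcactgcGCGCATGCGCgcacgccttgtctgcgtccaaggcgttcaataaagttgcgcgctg
Ndufa11, CRE, chr17:56717594-56717621, plus strand: ttacctttccTGACGTCAcgggcgtctc
Ndufa8 (complex I), chr2:36049349-36049378, minus strand: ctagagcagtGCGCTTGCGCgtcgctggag
Ndufa10 (complex I), CRE, chr1:92473808-92473835, minus strand: cactcagtggTGACGTCAtggcagcgcg
Sdha (complex II), chr13:74350319-74350348, minus strand: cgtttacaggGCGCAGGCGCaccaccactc
Sdhd (complex II), chr9:50603909-50603938, minus strand: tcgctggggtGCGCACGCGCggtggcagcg
Uqcrfs1 (complex III), CRE, chr13:30545328-30545355, minus strand: ggcgtcgcgcTGACGTCAcaaaccctgc
Cox6a1 (complex IV), chr5:115349066-115349129, minus strand: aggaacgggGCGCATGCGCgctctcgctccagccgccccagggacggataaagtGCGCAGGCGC
Atp5g2 (complex V), chr15:102671070-102671099, minus strand: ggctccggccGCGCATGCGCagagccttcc
A match is a string of letters and not a measured site. Of the 26 searched genes that passed a test below, 4 had the NRF1 motif and 3 the CRE.

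With all 11 codes no respiratory chain gene passed in edgeR between any pair of groups. This does not show that the groups were equal. In edgeR's quasi-likelihood test with Benjamini-Hochberg adjustment over all genes, 0 of 76 passed an adjusted p of 0.05 for FOXP3 against LNGFR, where 0.543% of all genes did. Between WT Treg and LNGFR it was again 0 of 76 (1.3% of all genes), as it was between FOXP3 and WT Treg (0.259%). At an unadjusted p under 0.05 there were 1, 16 and 1 of the 76. The shares of all genes called, here and below, refer to the adjusted p. Counts at an unadjusted p have no such share beside them and cannot be read as an excess. DESeq2 also called 0 of 76 in each comparison (2.65%, 4.95% and 7.19% of all genes), with 7, 30 and 2 at an unadjusted p under 0.05. limma voom with quality weights called 0, 0 and 1 (6.68%, 5.63% and 6.78% of all genes), the 1 being Sdhd, higher in FOXP3 than in WT Treg, and it left 3, 0 and 7 at an unadjusted p under 0.05. The median SE of a member's log2 fold change in edgeR was 0.38 where FOXP3 was set against LNGFR, 0.42 between WT Treg and LNGFR and 0.38 between FOXP3 and WT Treg.

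The medians that went with these counts depended on the codes and on the method. Over the 76 genes the median log2 fold change was -0.32 in FOXP3 over LNGFR, -0.72 in WT Treg over LNGFR and 0.45 in FOXP3 over WT Treg, beside -0.02, 0.08 and 0.01 over all genes tested. Of the 76 estimates, 10, 4 and 73 were above 0. With the same 11 codes limma voom gave medians of 0.26, -0.028 and 0.27.

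Without code E2 again 0 of 76 passed in each comparison (1.53%, 1.86% and 0.411% of all genes), and 4, 0 and 0 had an unadjusted p under 0.05. The medians were -0.30, -0.45 and 0.15. Leaving E2 out thus took the median between FOXP3 and WT Treg from 0.45 to 0.15. It left FOXP3 against LNGFR, which E2 enters only through the shared fit, almost where it was. Leaving out G4 or L1 instead, also WT Treg codes, took FOXP3 against LNGFR from -0.32 to -0.14. By complex, FOXP3 against WT Treg went from 0.44 to 0.15 in complex I, from 0.45 to 0.11 in complex II, from 0.42 to 0.12 in complex III, from 0.52 to 0.19 in complex IV and from 0.40 to 0.11 in complex V. WT Treg against LNGFR went from -0.73 to -0.47 in complex I, from -0.43 to -0.11 in complex II, from -0.70 to -0.45 in complex III, from -0.85 to -0.55 in complex IV and from -0.69 to -0.36 in complex V. No complex changed the sign of its median when E2 was left out.

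**Figure D1:**
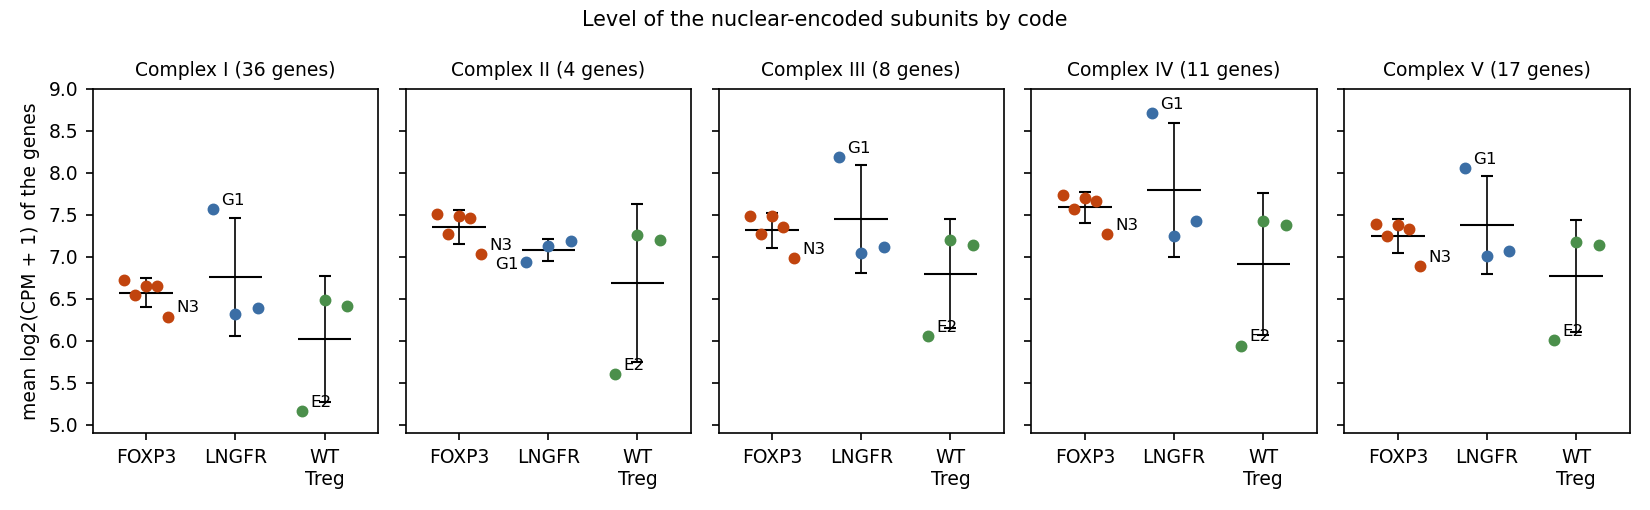
Mean log2(CPM + 1) of the nuclear-encoded subunits of each complex (vertical axis) in every code, by group; each point is 1 code, the long bar is the group mean and the whiskers are 1 SD (n = 5, 3 and 3 codes). E2 was the lowest code in every complex, and G1 the highest in complexes I, III, IV and V but not in complex II.

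The level of the whole chain in each code shows where these medians come from. The mean log2(CPM + 1) of the 76 genes was 7.14, 6.97, 7.10, 7.07 and 6.68 in F1, F2, F5, N2 and N3. It was 7.88, 6.73 and 6.81 in G1, G2 and G3, and 5.58, 6.90 and 6.83 in E2, G4 and L1. Apart from G1 and E2, all codes lay between 6.68 and 7.14, and the group means ± SD were 6.99 ± 0.19 in FOXP3 (n = 5), 7.14 ± 0.64 in LNGFR (n = 3) and 6.44 ± 0.74 in WT Treg (n = 3). Without E2 the WT Treg mean was 6.87 ± 0.05 (n = 2). Code E2 was below every other code for 73 of the 76 genes, and the exceptions were Atp5l, Ndufs1 and Sdha. N3 was below the other 4 FOXP3 codes for 67 genes, and G1 was above every other code for 66.

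In E2 the deficit reached all complexes. Relative to G4 and L1, its members were lower by a median of 1.27 on the log2 scale, with medians from -1.09 in complex III to -1.71 in complex II. Genes of like length were lower in E2 as well, but mostly less so. Over all tested genes the median was -1.05 for 501 to 750 bases, -1.08 for 751 to 1000 and -0.99 for 1001 to 1500, going to 0.19 above 5000. The members' own medians in the first of these classes were -1.27, -1.13 and -1.565. For 2001 to 3000 bases members were at -1.46 (4 members) against -0.69 over all genes. For 3001 to 5000 bases they were at -1.40 (3 members) against -0.41. Up to 500 bases both medians were -0.74. The genes of the mitochondrial genome did not share the deficit: the mean log2(CPM + 1) of that list was 6.85 in E2 and 5.87 and 5.85 in G4 and L1. A fit with the repeat-derived models left out gave medians of -0.28 in FOXP3 over LNGFR, -0.70 in WT Treg over LNGFR and 0.46 in FOXP3 over WT Treg. With those models in, the medians were -0.32, -0.72 and 0.45. What part the repeat-derived counts, the low number of counts or fewer transcripts per cell have in the E2 deficit was not tested further.

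In G1 the difference from G2 and G3 varied with transcript length. G1 exceeded the mean of G2 and G3 by a median of 1.33 (log2) over the 76 genes. Over all tested genes the same difference was 1.27 for transcripts of up to 500 bases, 1.24 for 501 to 750, 1.18 for 751 to 1000, 0.78 for 1001 to 1500, -0.10 for 1501 to 2000, -0.80 for 2001 to 3000, -0.76 for 3001 to 5000 and -0.41 above 5000. Between G2 and G3 the class medians over all genes lay between -0.06 and 0.05. The members' own medians for G1 against G2 and G3 were 1.435 for 501 to 750 bases, 1.12 for 1001 to 1500 and 0.70 for 1501 to 2000. They were -1.735 for 2001 to 3000 (4 members) and 1.26 for 3001 to 5000 (3 members). Members thus lay above all genes of like length in every class they occupy except 2001 to 3000 bases. The 76 genes are short (median 809 bases, against 2755 over the tested genes with a length), and 57 of the 58 under 1500 bases were higher in G1 than in both G2 and G3. Sdha, the flavoprotein of complex II with a transcript of 2900 bases, was 64.9 CPM in G1 and 454 and 481 CPM in G2 and G3. Ndufs1, the largest complex I subunit (2661 bases), was 31.6 CPM in G1 and 131 and 126 CPM in G2 and G3. Atp5a1, the alpha subunit of ATP synthase (2471 bases), was 327 CPM in G1 and 895 and 938 CPM in G2 and G3. These 3 were lower in G1, while the other 4 members of at least 2000 bases by the principal transcript (Atp5g1, Ndufa10, Ndufb2, Sdhc) were higher there. The nearly unchanged mean of complex II in G1 (6.93, against 7.12 and 7.18) thus joined a low Sdha and Sdhd with a high Sdhb and Sdhc. An alternative that takes each code's trend with transcript length out of the fit put the medians at 0.08, -0.04 and 0.14 for the 3 comparisons, with 0 of 76 called in each.

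**Figure D2:**
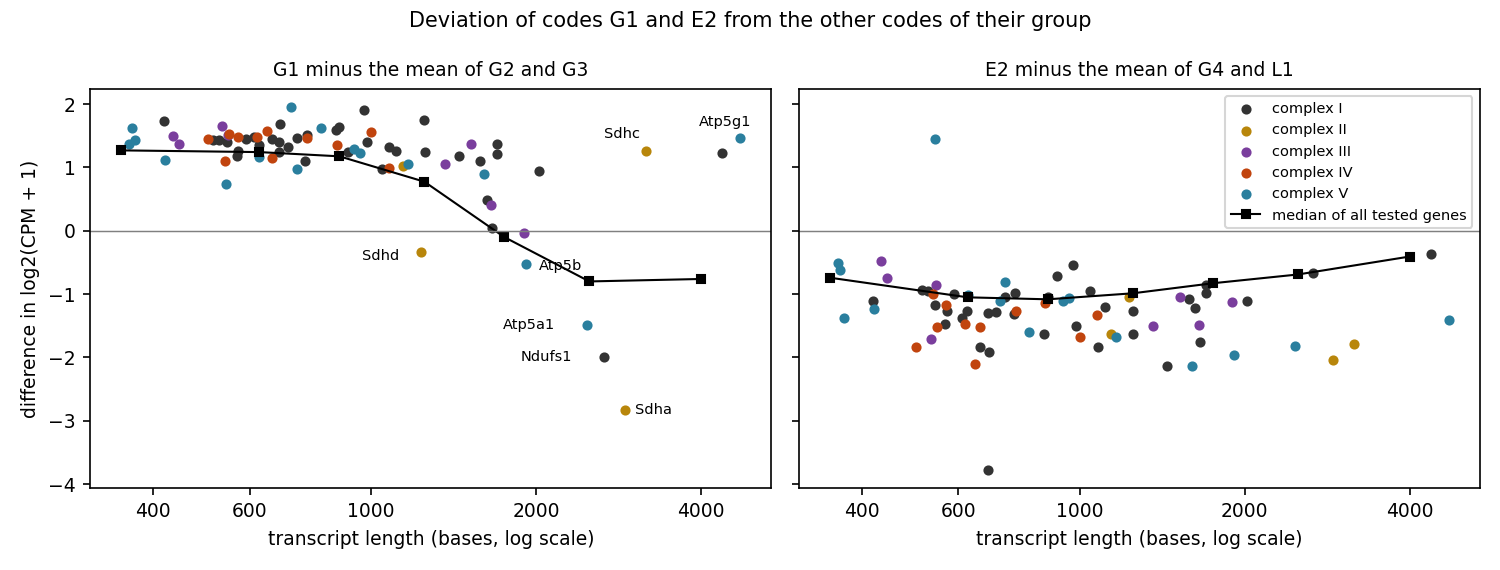
Difference in log2(CPM + 1) of each of the 75 genes with a length, coloured by complex, against the length of its principal transcript in bases (log scale): left, G1 minus the mean of G2 and G3; right, E2 minus the mean of G4 and L1. Black squares are medians of all tested genes by length class; on the left they go from 1.27 to a lowest value of -0.80 (2001 to 3000 bases), with the class above 5000 bases, where no member lies, not drawn, and Sdha, Ndufs1 and Atp5a1 lie below 0, whereas on the right nearly all genes lie below 0 at every length.

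Without E2 and G1 the median of FOXP3 over LNGFR was positive, while the codes still overlapped, since N3 lay below both G2 and G3 in the mean of the 76 genes. In 6 of 76 genes all 5 FOXP3 codes exceeded both LNGFR codes, as they did in 8.18% of all genes. Again 0 of 76 passed in each comparison (2.13%, 3.35% and 2.74% of all genes), with 14, 0 and 2 at an unadjusted p under 0.05. The median log2 fold change for FOXP3 against LNGFR was 0.26, with 69 of 76 above 0, and the median SE of a member was 0.16. The median was 0.11 in WT Treg over LNGFR and 0.14 in FOXP3 over WT Treg. In all 5 complexes the median for FOXP3 against LNGFR was between 0.22 and 0.29.

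Without E2, G1 and N3 a part of the chain was higher in FOXP3 than in LNGFR. Of the 76 genes 28 were called higher and 0 lower, while 6.61% of all genes were called higher: 12 of 36 in complex I, 2 of 4 in complex II, 3 of 8 in complex III, 4 of 11 in complex IV and 7 of 17 in complex V. The median log2 fold change was 0.34, beside -0.01 over all genes. WT Treg against LNGFR had 0 of 76 called in that set of codes (4.19% of all genes called higher; 7 of 76 at an unadjusted p under 0.05) and a median of 0.11. FOXP3 against WT Treg had 3 called higher (3.85% of all genes), a share near that of all genes, and a median of 0.21. G1 was the LNGFR code with the highest mean over the 76 genes and N3 the FOXP3 code with the lowest. Leaving both out therefore moves FOXP3 against LNGFR upward by construction. Leaving N3 out likewise moves FOXP3 against WT Treg upward, from a median of 0.14 without E2 and G1 to 0.21. N3 also had the highest B-cell sum and the lowest cell cycle sum of the FOXP3 codes. In the same set of codes all 25 cell cycle genes were called higher in FOXP3 than in LNGFR, with a median of 2.05. Plasma cell markers summed to 796 and 3716 CPM in G2 and G3 and to 460 to 537 CPM in F1, F2, F5 and N2. The part of proliferation and of B-cell or plasma cell RNA in the respiratory chain difference was not tested. In these bulk samples, fewer cells of a type and less RNA per cell cannot be told apart.

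**Figure D3:**
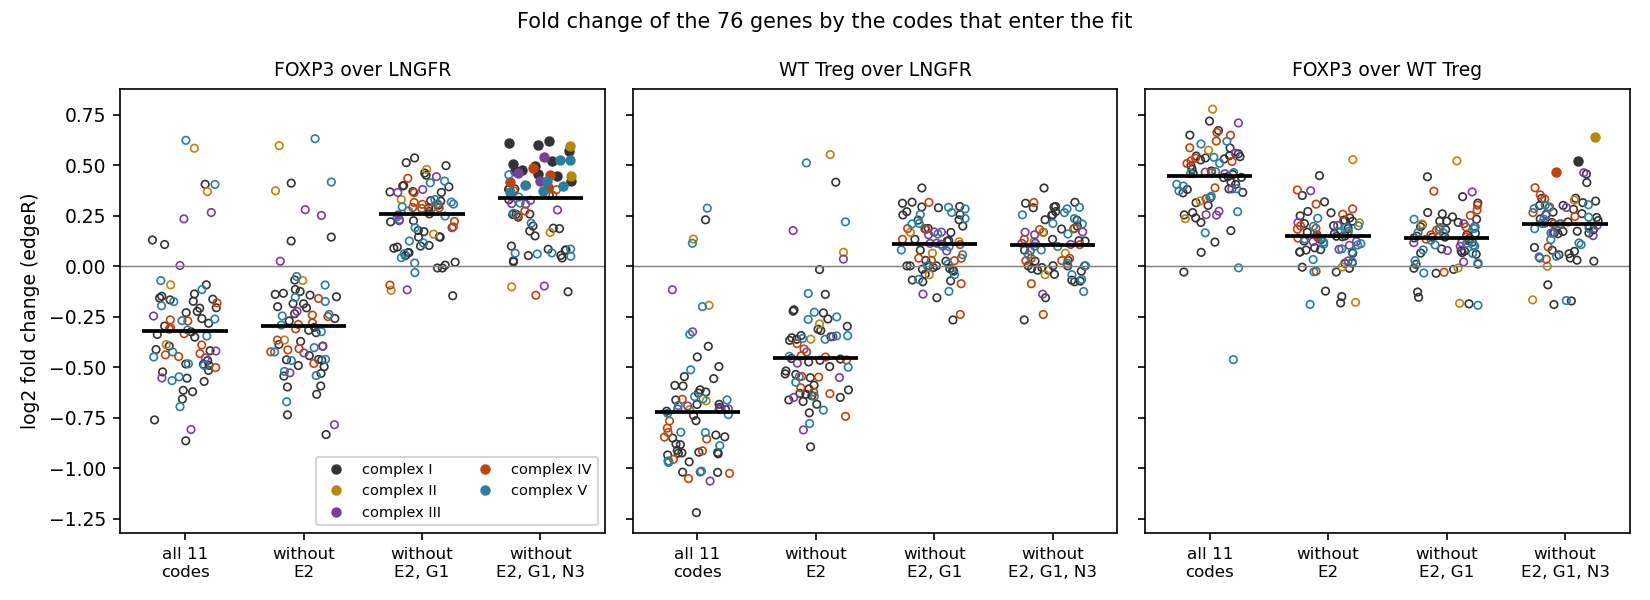
edgeR log2 fold change (vertical axis) of the 76 genes in the 3 comparisons with all 11 codes, without E2, without E2 and G1, and without E2, G1 and N3; each circle is 1 gene coloured by complex, filled where the adjusted p was under 0.05, and black bars are medians. The FOXP3 over LNGFR median goes from -0.32 to 0.34 and only the last set of codes has filled circles, 28 in FOXP3 over LNGFR and 3 in FOXP3 over WT Treg.

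In complex I, the genes Ndufa4, Ndufb8 and Ndufs8 were picked after their values were seen, as were Cox8a and Atp5j2 below. Ndufa4, now counted as a subunit of complex IV but named for complex I (ENSMUSG00000029632.7, GRCm38 chromosome 6, 11900292 to 11907497), had the smallest p of the 76 in that set of codes. It was 335, 281, 297, 313 and 204 CPM in F1, F2, F5, N2 and N3, 562, 199 and 202 CPM in G1, G2 and G3, and 93.5, 258 and 233 CPM in E2, G4 and L1. The groups overlapped through G1 and N3, and without E2, G1 and N3 the log2 fold change of FOXP3 over LNGFR was 0.61 ± 0.11 (SE, edgeR adjusted p = 0.00391). With all codes it was -0.16 ± 0.41 (adjusted p = 0.902). Ndufb8, an accessory subunit, was 123 to 146 CPM in F1, F2, F5 and N2, 96.1 in N3, 235, 83.4 and 93.4 CPM in G1, G2 and G3, and 114 and 116 CPM in G4 and L1. Its difference between FOXP3 and LNGFR without the 3 codes was 0.62 ± 0.12 (adjusted p = 0.00577). The core subunits, which carry the flavin and iron-sulfur centres or line the quinone site, were called in 1 of 7 cases in that set, Ndufs8 (0.52 ± 0.11, adjusted p = 0.00955). Ndufv1, which binds NADH and flavin, was 139 to 182 CPM in FOXP3 codes, 150.3, 151 and 139.6 CPM in G1, G2 and G3 and 144 CPM in both G4 and L1, an overlap of all 3 groups (0.19 ± 0.12 for FOXP3 over LNGFR without the 3 codes, adjusted p = 0.381). Ndufs1 was equally flat outside G1 and E2, at 114 to 145 CPM in FOXP3 and 127 and 129.7 CPM in G4 and L1. With all codes the smallest p for FOXP3 against LNGFR belonged to Ndufb4 and Ndufa5, accessory subunits, both with their maximum in G1. Ndufb4 was 46.4 CPM in G1, 10.9 and 12.5 CPM in G2 and G3 and 10.8 to 15.4 CPM in FOXP3 codes, and its log2 fold change turned from -0.86 ± 0.41 (adjusted p = 0.499) to 0.08 without the 3 codes. Ndufa10, an accessory subunit, was the one complex I gene called higher in FOXP3 than in WT Treg without the 3 codes (0.52 ± 0.11, adjusted p = 0.0157). It was 205, 171, 202 and 198 CPM in F1, F2, F5 and N2, 140.3 CPM in N3, and 136 and 133 CPM in G4 and L1.

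In complex II, Sdhd, a membrane anchor of succinate dehydrogenase (ENSMUSG00000000171.5, chromosome 9, 50596357 to 50603812), had a positive estimate against both other groups in each of these sets of codes. It was 145, 119, 138, 147 and 83.1 CPM in F1, F2, F5, N2 and N3, 71.6, 96.7 and 84.2 CPM in G1, G2 and G3, and 42.1, 88.3 and 87.0 CPM in E2, G4 and L1. All FOXP3 codes but N3 lay above every code of the other groups, and unlike most members Sdhd was not high in G1. Its log2 fold change of FOXP3 over LNGFR was 0.58 ± 0.30 with all codes (adjusted p = 0.555), 0.60 ± 0.24 without E2 (adjusted p = 0.29) and 0.60 ± 0.13 without E2, G1 and N3 (adjusted p = 0.0103). Over WT Treg it was 0.78 ± 0.30 with all codes (adjusted p = 0.211), 0.53 ± 0.28 without E2 (adjusted p = 0.689) and 0.64 ± 0.13 without the 3 codes (adjusted p = 0.0108), the smallest p of the 76 in that comparison and set. Sdhb, the iron-sulfur subunit, was 339, 307, 338 and 348 CPM in F1, F2, F5 and N2, 199.7 CPM in N3, 494, 242 and 245 CPM in G1, G2 and G3, and 278 and 250.1 CPM in G4 and L1. It was called in FOXP3 over LNGFR without the 3 codes (0.45 ± 0.10, adjusted p = 0.016) and not in FOXP3 over WT Treg (0.33 ± 0.10, adjusted p = 0.081). Sdha, its partner in the catalytic dimer, showed no such step: it was 407 to 466 CPM in FOXP3 codes, 454 and 481 CPM in G2 and G3 and 518 and 458 CPM in G4 and L1, and the difference without the 3 codes was -0.10 ± 0.10 (adjusted p = 0.606). Sdhc, the other anchor, stood at 33.9 to 49.3 CPM in FOXP3, 34.1 and 43.3 CPM in G2 and G3 and 41.9 and 44.9 CPM in G4 and L1, which overlap.

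In complex III, Uqcrc1, core protein 1 (ENSMUSG00000025651.14, chromosome 9, 108936633 to 108949623), was 538, 490.3, 592, 555 and 392 CPM in F1, F2, F5, N2 and N3, 522, 397 and 391 CPM in G1, G2 and G3, and 157, 444 and 440.3 CPM in E2, G4 and L1. F1, F2, F5 and N2 were above G2, G3, G4 and L1, and N3 was level with G2 and G3. Without the 3 codes FOXP3 exceeded LNGFR by 0.46 ± 0.11 (adjusted p = 0.0146), and with all codes by 0.23 ± 0.35 (adjusted p = 0.832). Uqcrfs1, the Rieske iron-sulfur protein, was 186 to 254 CPM in F1, F2, F5 and N2, 154 CPM in N3, 328, 174 and 141 CPM in G1, G2 and G3, and 162 and 170.1 CPM in G4 and L1 (0.54 ± 0.14 without the 3 codes, adjusted p = 0.0321). Uqcrh was the one gene of the 76 with an unadjusted p under 0.05 in FOXP3 against LNGFR with all codes, in the direction of LNGFR (-0.81 ± 0.36, p = 0.0448, adjusted p = 0.471 in edgeR). That difference rested on G1: Uqcrh was 764 CPM there and 229.6 to 279.6 CPM in every other code but E2 (133 CPM). Without the 3 codes it was -0.10 ± 0.11 (adjusted p = 0.651).

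In complex IV, Cox6a1, the ubiquitous isoform of subunit 6A (ENSMUSG00000041697.8, chromosome 5, 115345642 to 115348981), was 226, 201, 226, 216 and 146 CPM in F1, F2, F5, N2 and N3, 466, 154 and 179 CPM in G1, G2 and G3, and 68.4, 150.1 and 163 CPM in E2, G4 and L1. F1, F2, F5 and N2 lay above G4 and L1, and it was called in FOXP3 over WT Treg without the 3 codes (0.47 ± 0.11, adjusted p = 0.0261) but just missed in FOXP3 over LNGFR (0.38 ± 0.11, adjusted p = 0.0507). Cox8a, the ubiquitous isoform of subunit 8, was 252 to 294 CPM in F1, F2, F5 and N2, 230.2 CPM in N3, 579.7, 184 and 217 CPM in G1, G2 and G3, and 216 and 223 CPM in G4 and L1 (0.49 ± 0.11 over LNGFR without the 3 codes, adjusted p = 0.0172). Cox6b1, Cox6c and Cox7a2 were called in the same comparison, at 0.45, 0.39 and 0.42. Cox4i1 and Cox5a were not, at 528 to 680.3 and 93.1 to 162 CPM in FOXP3 codes. Cox7a2l, which helps to join complexes III and IV into supercomplexes, went the other way in value: it was 187 to 235 CPM in FOXP3 codes, 230.0 and 214 CPM in G2 and G3 and 196 and 179.8 CPM in G4 and L1 (-0.14 ± 0.11, adjusted p = 0.498), and it was one of 4 members not lower in N3 than in the mean of the other FOXP3 codes.

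In complex V, Atp5b (ENSMUSG00000025393.12, chromosome 10, 128083273 to 128090391) was the most abundant member by CPM, at 1229, 1123, 1345, 1346 and 854 CPM in F1, F2, F5, N2 and N3, 689, 957 and 1026 CPM in G1, G2 and G3, and 263, 1013 and 1046 CPM in E2, G4 and L1. Its 4 FOXP3 codes other than N3 exceeded all codes of the other groups, but the difference without the 3 codes missed the threshold (0.34 ± 0.11, adjusted p = 0.0602). Atp5a1, its partner in the catalytic head, was 1112 to 1241 CPM in those 4 codes, 800.5 CPM in N3, 895 and 938 CPM in G2 and G3 and 1027 and 1016 CPM in G4 and L1, and passed (0.37 ± 0.10, adjusted p = 0.0285). Atp5a1 and Atp5b also had positive estimates with all codes (0.62 ± 0.45 and 0.40 ± 0.41, adjusted p = 0.679 and 0.757) and without E2 and G1 (0.27 ± 0.17 and 0.25 ± 0.17). Atp5j2, the f subunit in the membrane, was 169.6 to 189.6 CPM in F1, F2, F5 and N2, 111 CPM in N3, 293, 120.4 and 129.6 CPM in G1, G2 and G3 and 152 CPM in both G4 and L1. Its difference between FOXP3 and LNGFR was 0.53 ± 0.11 without the 3 codes (edgeR adjusted p = 0.00754) and -0.12 ± 0.36 with all codes (adjusted p = 0.922). In the c ring, which 3 genes with 1 mature protein supply, Atp5g3 was called without the 3 codes (0.53 ± 0.12, adjusted p = 0.0138), while Atp5g1 and Atp5g2 were not. Atp5g3 was 782 CPM in G1 and 187 to 329 CPM in FOXP3 codes, and with all codes its estimate was -0.55 ± 0.45 (edgeR adjusted p = 0.713). The share of Atp5g3 in the counts of the 3 was 75.5% ± 2.06 (SD, n = 5) in FOXP3, 72.6% ± 4.53 (n = 3) in LNGFR and 72.9% ± 1.12 (n = 3) in WT Treg; these shares mix transcript lengths and serve only to compare groups, whose spreads overlap. Without the 3 codes the peripheral stalk genes Atp5o and Atp5pb were called at 0.42 and 0.40, as was Atp5j at 0.40. With all codes the estimates of Atp5o, Atp5pb and Atp5j were -0.27, -0.07 and -0.45.

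**Figure D4:**
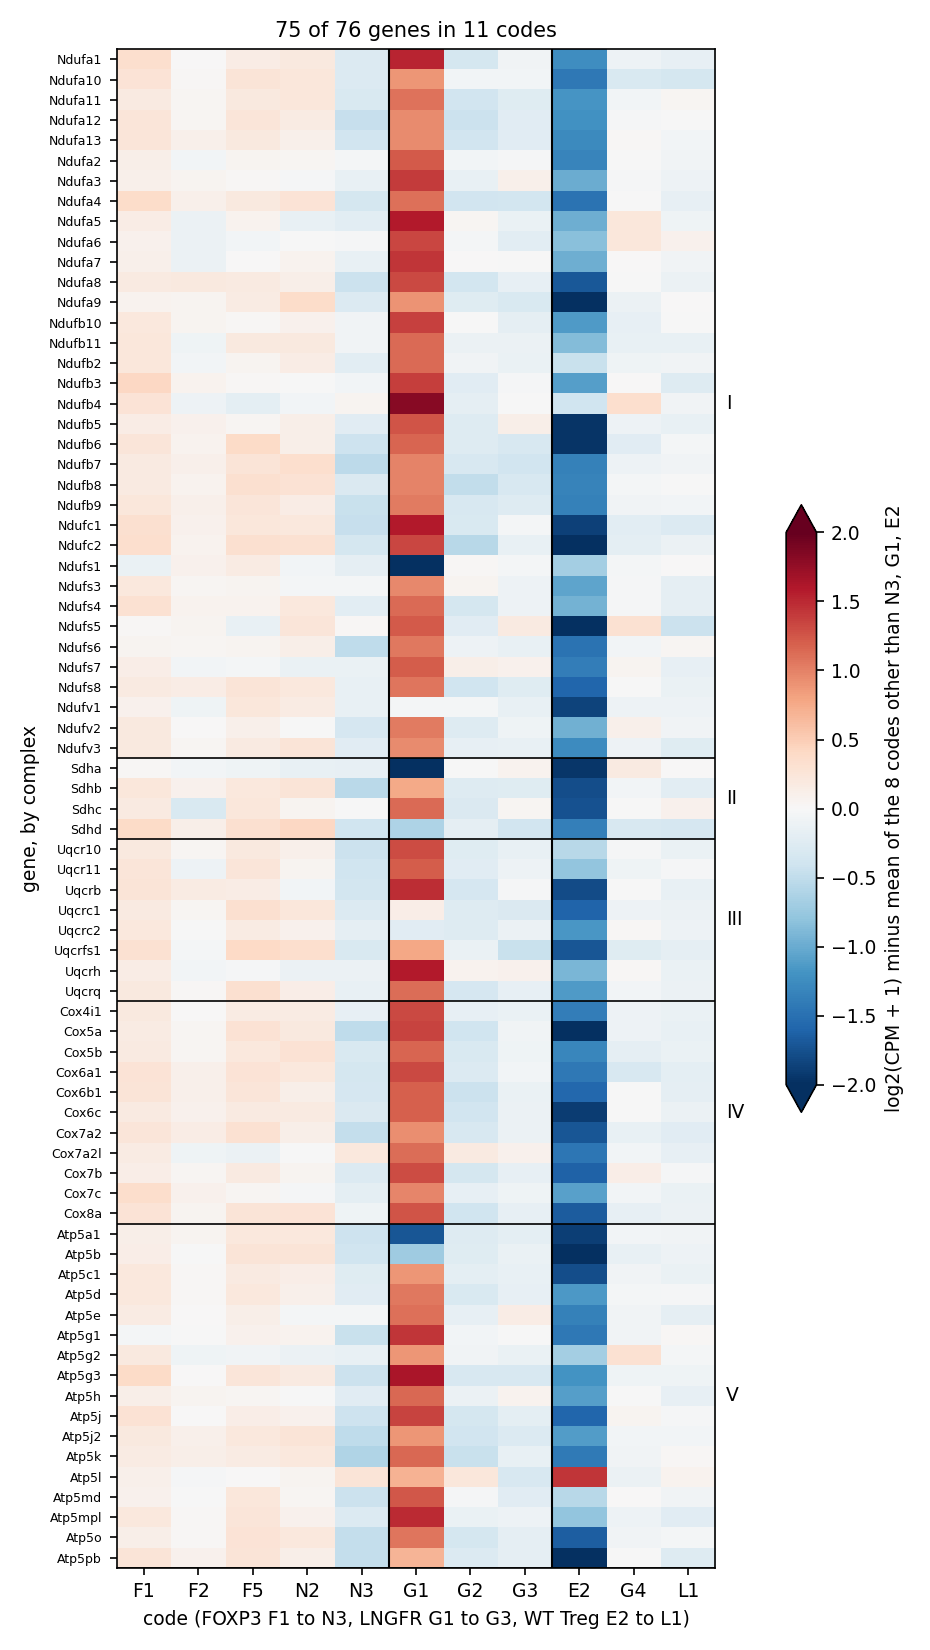
log2(CPM + 1) of 75 of the 76 genes (vertical axis, by complex) in the 11 codes (horizontal axis), as the difference from that gene's mean over the 8 codes other than N3, G1 and E2, with the colour scale ending at -2 and 2. G1 is a column of high values broken by Sdha, Ndufs1, Atp5a1, Atp5b and Sdhd; E2 is a column of low values broken by Atp5l; N3 is lower than the other FOXP3 codes in most genes.

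Other genes of the pathway gave few calls with all codes. Of 12 tested genes of the mitochondrial genome, 0 were called in either comparison with LNGFR and 1 between FOXP3 and WT Treg: mt-Nd3, a complex I subunit. At an unadjusted p under 0.05 there were 0, 2 and 2. It was 0.117 to 0.372 CPM in FOXP3 codes, 0.12 to 1.34 CPM in LNGFR codes and 5.19 to 7.9 CPM in WT Treg codes, with no overlap of WT Treg with either group (-4.51 on the log2 scale, adjusted p = 0.0192, and -4.33, adjusted p = 0.0215, without E2). These levels are a few CPM or less. Other genes of the list were also low, mt-Co2 at 2.80 to 14.5 CPM and mt-Co3 at 0.80 to 5.72 CPM over all codes. How multimapping reads were counted is not given, and its part in the low values and in the mt-Nd3 difference was not tested. mt-Atp8, a complex V subunit picked after its values were seen, was also low and did not overlap, at 0.279 to 0.871 CPM in FOXP3 and 0.97 to 5.26 CPM in WT Treg codes, and did not pass (-1.99 on the log2 scale, adjusted p = 0.253). In the abundant genes of the list the groups overlapped: mt-Co1, a core subunit of complex IV, was 3523 to 5116 CPM in FOXP3, 4086 to 6336 CPM in LNGFR and 3589.7 to 7238 CPM in WT Treg codes, and mt-Nd1 3595 to 5063, 3692 to 8948 and 3039.9 to 5335 CPM. Respiratory chain assembly factors (44 tested), coenzyme Q synthesis genes (13), biogenesis regulators (13), TCA cycle and pyruvate dehydrogenase genes (17) and other subunits and carriers (9) had 0 called in all 3 comparisons, with all codes and without E2, in edgeR. At an unadjusted p under 0.05 the assembly factors had 4, 10 and 2 with all codes, coenzyme Q synthesis 1, 4 and 1, the regulators 1, 0 and 0, the TCA list 1, 0 and 1 and the carriers 0, 3 and 1. Without E2, G1 and N3 assembly factors had 0 called for FOXP3 against LNGFR and a median of -0.04, below the 0.34 of the subunits. The mitochondrial genome list, with 11 genes tested, had 0 called in that comparison and a median of -0.09. The TCA list had 3 called higher of 17 in that set, Cs, Idh3a and Sucla2, with a median of 0.26. Cs, citrate synthase, was 424, 449, 523, 522 and 327 CPM in F1, F2, F5, N2 and N3, 99.9, 289 and 353 CPM in G1, G2 and G3, and 82.9, 389 and 373 CPM in E2, G4 and L1 (0.57, adjusted p = 0.0117). Of the regulators, Gabpb1, a subunit of the GABP factor, was called in FOXP3 over LNGFR (0.61, edgeR adjusted p = 0.0111). Gabpb1 was also called in WT Treg over LNGFR (0.55, edgeR adjusted p = 0.0453). In FOXP3 over WT Treg it was not (0.06, edgeR adjusted p = 0.836). Tfam, which packages and transcribes mitochondrial DNA, was not called in FOXP3 over LNGFR (0.33, edgeR adjusted p = 0.176). Neither were Myc (-1.01, adjusted p = 0.151), Ppargc1b (-0.84, adjusted p = 0.25) or Cycs, cytochrome c (-0.07, adjusted p = 0.871). Comparisons with WT Treg in that set of codes gave other calls in edgeR. Among them in WT Treg over LNGFR were mt-Nd3 (4.175, adjusted p = 0.00773), Cox10 (-0.82, adjusted p = 0.0192) and Sdhaf1 (0.76, adjusted p = 0.0446). In FOXP3 over WT Treg they included mt-Nd3 (-4.44, adjusted p = 0.00145), Coq7 (1.21, adjusted p = 0.0256) and Etfa (0.55, adjusted p = 0.0221).

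The cell cycle list and the respiratory chain level were set side by side for each code. The mean log2(CPM + 1) of the 25 cell cycle genes was 6.63, 6.56, 7.01 and 7.17 in F1, F2, F5 and N2 and 4.79 in N3, where the respiratory mean was 6.68. It was 4.82 and 4.99 in G2 and G3, with respiratory means of 6.73 and 6.81, and 5.67 and 6.09 in G4 and L1, with 6.90 and 6.83. N3 thus lay with G2 and G3 in both measures. G1 and E2 had cell cycle means of 4.55 and 4.48 and the highest and the lowest respiratory mean of the 11 codes. No correlation was computed, because the codes fall into separate groups. The LNGFR codes all carry the letter G, as does the WT Treg code G4, and the FOXP3 codes carry F or N. What the letters mark is not given in the sources used here, and between FOXP3 and LNGFR it cannot be told apart from the vector.

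**Figure D5:**
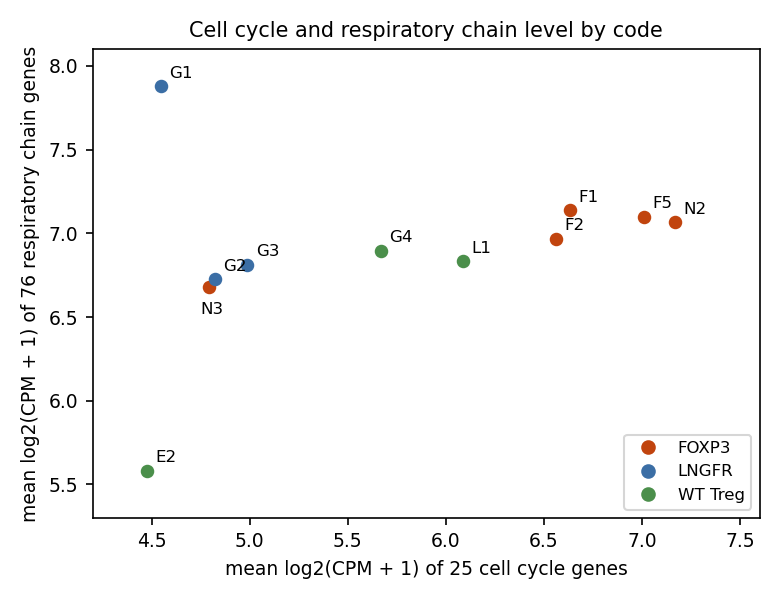
Mean log2(CPM + 1) of the 76 respiratory chain genes (vertical axis) against that of 25 cell cycle genes (horizontal axis), 1 point per code, coloured by group. N3 lies beside G2 and G3 at 4.79 and 6.68, the other FOXP3 codes lie at 6.56 or more on the horizontal axis, and G1 and E2 lie above and below all others.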

How the data were processed

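The 22 Smart-seq libraries were analysed as deposited. The authors' file holds raw read counts per gene; per the submitters' processing notes it was made with STAR 2.7.3a, featureCounts and Subread 2.0.0 on mm10/GRCm38. Which annotation and strand setting were used, and what was done with multimapping reads, is not given in the sources used here, so 9 members with named pseudogene copies are uncertain, above all Ndufa12 (617 counts on copies against 3811 on the gene).

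The 2 libraries of a code were summed. Groups were compared in 1 fit over all 11 codes with edgeR 4.0.16 (TMM factors, filterByExpr, robust quasi-likelihood test, Benjamini-Hochberg adjustment over 15462 genes, threshold 0.05) in R 4.3.3. SE is the log2 fold change divided by the square root of F. Levels are CPM scaled by TMM, or log2 of CPM plus 1. Transcript lengths and positions come from GENCODE M21 (GRCm38). Alternatives were DESeq2 1.42.0, limma 3.58.1 voom with quality weights, other scalings and filters, each code left out, sets of codes left out and, added after seeing the data, a set without E2 and G1, an offset for transcript length and the code number as a block. The scripts were tested on simulated data. Tables and plots used Python 3.11.15 with pandas 2.3.3 and numpy 2.4.6.

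Values of 1 member are not reported here. Members and gene lists were chosen with earlier results of these data known. By the plan, named genes were members called with all codes and the 2 with the smallest p per complex and comparison. Fixed core subunits, tissue-restricted isoforms and up to 3 called genes per other list were added, with Ppargc1b, Myc, Tfam, Cycs, mt-Co1 and mt-Nd1. Not all of these are printed, and not every member called without E2, G1 and N3 is given with values. Genes named beyond the plan, Ndufa4 and Ndufb8 among them, were picked after their values were seen. Code totals ran from 1154626 (E2) to 10376164 counts. Apart from the bound given for Ndufs5 in E2, intervals from counting were not used, since PCR reads without molecular identifiers are not independent molecules.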

Additional observations from a re-analysis of the deposited data

Results flagged for a closer look

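Of 37 values looked at in the 5 FOXP3 codes, 9 had 1 code far from the other 4. For a single value, chance alone gives such a gap in about 1 in 20. The 37 values share the same 5 codes and are not independent, so their count cannot be set against that rate. In 8 of the 9 that code was N3 and it was low, all on the log2(CPM + 1) scale. Atp5a1 was 9.647 in N3 and 10.12 to 10.28 in the others. Atp5g1 was 5.615 against 6.017 to 6.134, and Atp5pb 7.927 against 8.492 to 8.661. Cox6a1 was 7.203 against 7.662 to 7.826, and Cox7a2 6.977 against 7.569 to 7.758. Sdhb was 7.649 against 8.265 to 8.449, and Uqcr10 6.061 against 6.537 to 6.7. The cell cycle mean was 4.791 against 6.563 to 7.17. The ninth was Atp5g2, high in F1 at 4.826 against 4.489 to 4.557. N3 also held the highest B-cell marker sum (13600 CPM). The part of either in the low respiratory chain values was not tested.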

How the results depend on the processing

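Over 25 alternatives (21 planned, 4 added after seeing the data), the members' median kept its sign in 19 where FOXP3 was set against LNGFR, in 22 between WT Treg and LNGFR and in all 25 between FOXP3 and WT Treg. The fit without E2 is counted both as a set of codes and as a single code left out, with identical values. Leaving out each code in turn took the first from -0.38 (without G3) to 0.26 (without G1), the second from -0.90 (without G4) to -0.19 (without G1) and the last from 0.15 (without E2) to 0.76 (without G4). Without the 3 weak libraries alone, which takes out E2 and leaves G1 its deeper library, the medians were -0.56, -0.70 and 0.14, and with no filter on low counts the first was -0.040. With each code left out in turn, the genes listed next had their highest value in FOXP3 against LNGFR without G1. Their range was -1.02 to 0.10 for Ndufb4, -0.91 to 0.0082 for Ndufa5, -0.45 to 0.16 for Sdhc, -0.55 to 0.23 for Uqcr10, -0.54 to 0.22 for Cox4i1 and -0.68 to 0.19 for Atp5mpl. This does not hold for genes low in G1: without E2 and G1, Sdhd was 0.48 and Atp5a1 0.27, against 0.58 and 0.62 with all codes.

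Without E2, G1 and N3, 28 members were called higher in FOXP3 than in LNGFR and 3 higher than in WT Treg, against 0 and 0; voom called 1 of the latter. For FOXP3 against LNGFR that set moved the median to 0.34, Ndufb4 to 0.079, Ndufa5 to 0.041, Sdhc to 0.17, Uqcr10 to 0.33, Cox4i1 to 0.27, Atp5g1 to 0.049 and Atp5mpl to 0.26. Without E2 and G1 the median was 0.26, Ndufb4 0.10, Ndufa5 0.0051, Sdhc 0.16, Uqcr10 0.23, Cox4i1 0.22 and Atp5mpl 0.19. With voom the median was 0.26, Sdhc 0.12, Uqcr10 0.22, Cox4i1 0.17 and Atp5mpl 0.15. With the length offset Uqcr10 was 0.24, Cox4i1 0.035 and Atp5mpl 0.22, and with E2 also out 0.23, 0.032 and 0.20.

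For WT Treg against LNGFR the median was 0.11 without E2, G1 and N3 and without E2 and G1, -0.028 with voom and 0.052 with the length offset without E2. Both of those sets of codes put Sdhc at 0.17, Sdhb at 0.12 and Uqcrb at 0.11, and voom put Sdhc at 0.10. The length offset put Atp5mpl at 0.27 and Atp5e at 0.10, and with E2 out Uqcrb at 0.11, Atp5mpl at 0.10 and Atp5e at 0.12. The cause of these shifts was not tested. Code numbers recur across groups (F1, G1 and L1, for example), but nothing given says that they pair codes. The deviations of the 9 same-number pairs from their group means correlated at -0.30 to 0.11 across genes. With the code number as a replicate block 0 members were called in each comparison, and the medians were -0.16, -1.19 and 0.98. The alternative without Atp5s and Atp5sl did not apply, since neither was matched. E2, with 1154626 counts, limits any statement on WT Treg.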
